A study of Rattus norvegicus with 6 samples.

Results

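The blood-brain barrier genes described here are 9 genes with known roles in brain endothelial cells. Of these, 4 serve the junctions between the cells (Cldn5, Ocln, Tjp1 and Cdh5) and 5 serve transport across them (Abcb1a, Abcg2, Slc2a1, Mfsd2a and Slco1a4). The genes were chosen by name, and the RefSeq transcript named for each probe on the array gave its gene. All 9 were measured, among 12963 gene symbols and 22179 rows tested in all, where a row is 1 gene symbol or 1 probe without a symbol. The samples were brain tissue of rats, 3 from a sham group and 3 from an intracerebral hemorrhage (ICH) group, in which blood has leaked into the brain itself, with 1 single-colour Agilent array each. The ICH tissue is labelled peripheral, and the title of the series places the injury around the hematoma, the clot that the bleed leaves. All 6 samples carry the age label day 1, with no word on what the day is counted from. The design text calls the ICH replicates transfected, which no sample label does. The strain and sex of the rats, the way the bleed was made, the sham procedure and the place of the dissection are not given in the sources used here.

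The endothelial cells of brain vessels are sealed to each other by tight junctions and have few vesicles, so that most solutes enter the brain only through a carrier. Claudin-5 and occludin span the membrane at the tight junction, ZO-1 (Tjp1) ties them to actin inside the cell, and VE-cadherin (Cdh5) holds the adherens junction. Efflux pumps return lipid-soluble compounds to the blood, and carriers bring in glucose, lipids and organic anions. In bleeding, plasma proteins and water can cross a leaky barrier, and edema around the clot is a known feature of this injury.

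The comparison of ICH with sham asks how the transcripts of this barrier differ in tissue next to a hematoma. For Ocln, Cldn5 and Abcg2, all 3 ICH arrays lay below all 3 sham arrays, by 1.53-fold, 1.28-fold and 2.80-fold on average. Tjp1, Slc2a1, Mfsd2a and Abcb1a had differences of -0.02 to 0.14 on the log2 scale, with ICH values on both sides of the sham values. Cdh5 and Slco1a4 were lower in the ICH mean by 1.42-fold and 1.46-fold, with overlapping groups. 0 of the 9 passed the adjusted threshold of 0.05 in limma, as did 0 of all 22179 rows (0%), so each difference here is given as a measurement and not as a call.

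The bases just upstream of the start of Ocln, Cldn5 and Abcg2 are shown because these are the 3 members whose groups did not overlap. Each line gives the 250 bases before the gene's start, 5′ to 3′ on the gene's strand, from RefSeq, build GRCr8. Ocln lies at chr2:33441199-33441448 on the minus strand, Cldn5 at chr11:95718599-95718848 on the minus strand and Abcg2 at chr4:89075224-89075473 on the plus strand. Capitals mark every match, on either strand, to any of the 10 motifs searched.
Ocln: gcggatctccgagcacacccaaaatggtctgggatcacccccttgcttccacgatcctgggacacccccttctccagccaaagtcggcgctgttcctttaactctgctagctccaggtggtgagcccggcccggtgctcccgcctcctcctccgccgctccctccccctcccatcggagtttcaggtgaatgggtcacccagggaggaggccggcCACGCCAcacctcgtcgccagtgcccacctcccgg
Cldn5: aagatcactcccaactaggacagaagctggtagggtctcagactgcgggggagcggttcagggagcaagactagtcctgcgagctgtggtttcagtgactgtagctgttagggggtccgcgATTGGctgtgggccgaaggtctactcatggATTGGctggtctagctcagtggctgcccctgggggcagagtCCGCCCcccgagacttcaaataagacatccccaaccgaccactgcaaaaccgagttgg
Abcg2: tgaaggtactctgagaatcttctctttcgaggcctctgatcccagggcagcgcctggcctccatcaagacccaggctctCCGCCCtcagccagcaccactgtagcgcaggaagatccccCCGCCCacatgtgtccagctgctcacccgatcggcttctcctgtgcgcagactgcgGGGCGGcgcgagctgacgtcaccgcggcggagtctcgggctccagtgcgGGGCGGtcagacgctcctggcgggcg

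The capitals are a TNGCGTG match in Ocln, 35 bases before the start, 2 CCAAT matches and a GGGCGG match in Cldn5, and 4 GGGCGG matches in Abcg2, 171 to 26 bases before the start. TNGCGTG is the core that the dioxin receptor recognises, and 4.09% of the 33469 upstream windows of the same length in the RefSeq table held it. GGGCGG, the GC box of Sp1-type factors, was in 30.5% of all windows, and in 4 of the 7 members that have an entry (Abcb1a, Abcg2, Slc2a1 and Cldn5). CCAAT was in 34.0% of all windows and in Slco1a4 and Cldn5. The other members with an entry held CTTTGA, the core of TCF/LEF factors that act in Wnt signalling (Tjp1 alone, 13.9% of all windows), ACAAAG of SOX factors (Tjp1 alone, 16.3%), TGANTCA of AP-1 (Abcb1a alone, 6.34%) and ACGTG of hypoxia-inducible factors (Slco1a4 and Slc2a1, 16.6%). GTAAACA of FOX factors (3.21%), CCGGAAG of ETS factors (7.27%) and the 10-letter NF-kB site (0.314%) were in none of the 7. TCF/LEF and SOX matches can share letters, and in Slco1a4 ACGTG matched on both strands at the same place. The GC content was 66.4% for Ocln, 58.4% for Cldn5 and 67.2% for Abcg2, against a median of 51.2% over all windows. Cdh5 and Mfsd2a were not matched in the table. A match is a description of the letters and not a site of binding.

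Values are log2 intensities set relative to the 75th percentile of each array, which is 0, so that a value of 1 is 2-fold above that point. The levels of different probes are not set against each other, and only the sums over lists add them up. That percentile was taken over the means of the probes. Over single spots without controls, the 75th percentile ran from 5726 to 6676 intensity units. Of these 58717 spots per array, 81.8% to 85.4% were well above background, and 0 were saturated. Correlations between arrays over the rows tested were 0.985 to 0.991 within sham and 0.949 to 0.980 within ICH, with ICH 2 in the lowest of them. All 9 members were well above background on all 6 arrays. The labels call the samples of a group biological replicates, and with 3 arrays per group their number limits the precision. In bulk tissue, fewer cells of a type and less RNA per cell cannot be told apart.

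Of the junction genes, Cldn5 encodes the main claudin of brain endothelium. Its levels were 2.38, 2.33 and 2.39 on the sham arrays and 2.20, 1.82 and 2.00 on the ICH arrays. The sham values were close together, and all 3 ICH values were below them, with a gap of 0.12 between the nearest. The difference of ICH from sham was -0.36 ± 0.14 (log2, SE, n = 3 per group, 95% interval -0.71 to -0.01), with an adjusted p = 0.338. Of all rows, 21.6% had a lower difference.

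Ocln, which encodes occludin, was at -1.97, -2.40 and -2.12 in sham and at -2.74, -2.74 and -2.87 in ICH. The ICH values were tightly grouped and lay under the lowest sham value by 0.34. The difference was -0.62 ± 0.15 (log2, SE, 95% interval -0.99 to -0.24), with an unadjusted p = 0.00682 and an adjusted p = 0.299. Ocln had the smallest p of the 9 members, and 2.02% of all rows had a smaller one. Occludin was also the only member with less spread in ICH than in sham.

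Tjp1, the gene of the scaffold ZO-1, was at 0.98, 0.92 and 0.83 in sham and at 0.71, 1.31 and 0.85 in ICH on the probe with 10 spots. ICH 1 was below and ICH 2 above the sham values, while ICH 3 lay among them. The difference was 0.04 ± 0.19 (log2, SE, 95% interval -0.41 to 0.50), and without ICH 2 it was -0.13. A second probe for Tjp1, tested with all probes as rows of their own, gave 0.10 ± 0.18 (adjusted p = 0.784) and overlapping groups as well.

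Cdh5, the endothelial cadherin of adherens junctions, was at -3.79, -4.33 and -4.05 in sham and at -4.45, -5.09 and -4.16 in ICH. ICH 1 and ICH 2 were below every sham value and ICH 3 was within their range. The difference was -0.51 ± 0.28 (log2, SE, 95% interval -1.19 to 0.17), with an adjusted p = 0.419. Without ICH 2 it was -0.25.

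**Figure D1:**
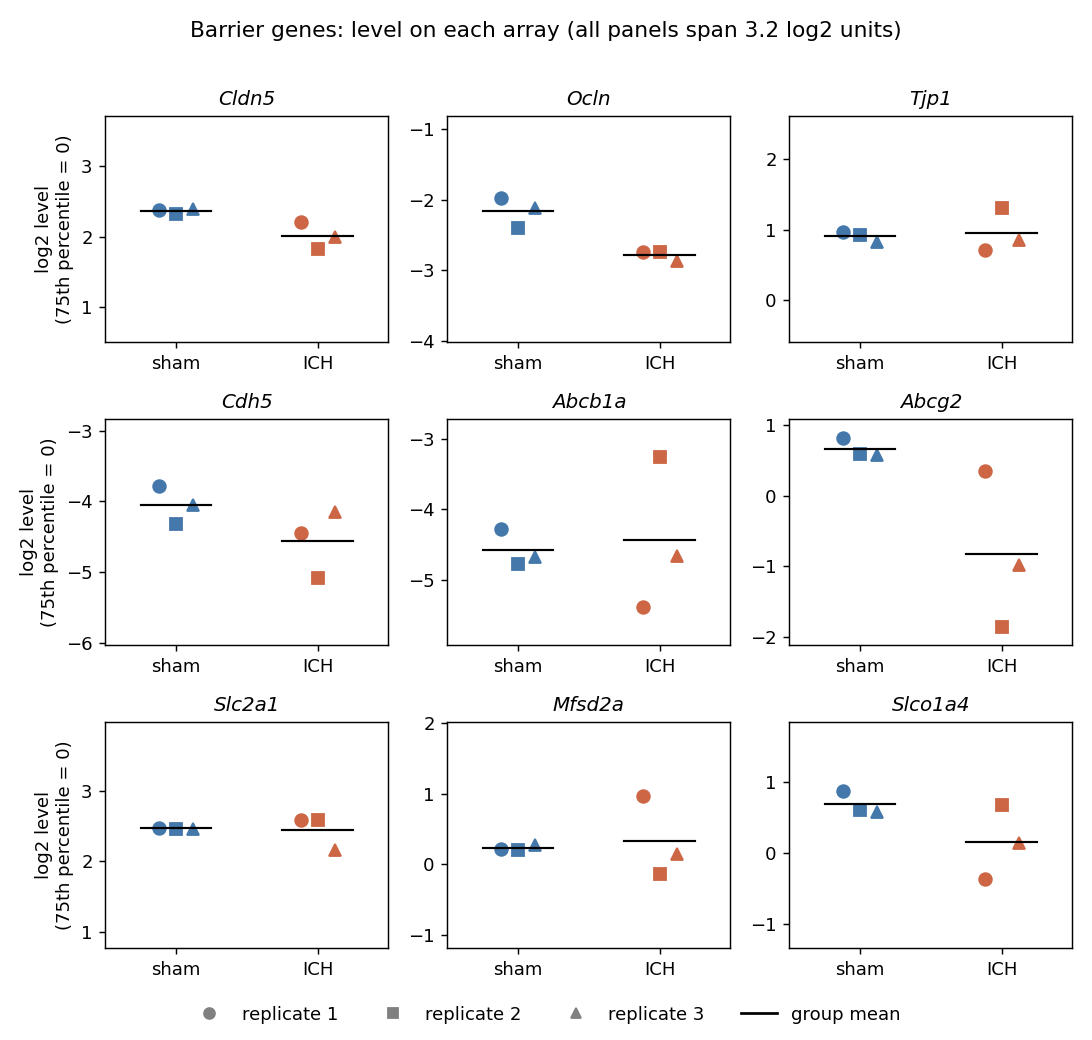
Levels of the 9 barrier genes on each array, as log2 intensity relative to the 75th percentile of the array. Each point is 1 array, sham in blue and ICH in red, each panel has its own axis, and the bars are group means; Ocln, Cldn5 and Abcg2 are the panels in which every ICH point lies below every sham point.

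Among the efflux pumps, Abcg2 encodes BCRP, a pump for many drugs on the blood side of the endothelium. Its levels were 0.82, 0.58 and 0.58 in sham and 0.35, -1.85 and -0.98 in ICH. The sham values were close, whereas the ICH arrays spread widely, from just under sham (ICH 1, a gap of 0.22) to far under it (ICH 2). The difference was -1.49 ± 0.53 (log2, SE, 95% interval -2.79 to -0.18), with an unadjusted p = 0.0314 and an adjusted p = 0.316. Of all rows, 0.415% had a lower difference. Without ICH 2 the difference was -0.97, and without ICH 1 it was -2.08.

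Abcb1a encodes P-glycoprotein, the other main efflux pump of these cells. It was dim, at -4.27, -4.78 and -4.67 in sham and -5.38, -3.26 and -4.67 in ICH. ICH 1 had the lowest and ICH 2 the highest value of all 6 arrays. The difference was 0.14 ± 0.53 (log2, SE, 95% interval -1.15 to 1.43), so that the interval holds more than a 2-fold change in either direction, and without ICH 2 the difference was -0.45. The 2 spots of this probe differed within an array by up to 0.52 (SD). Abcb1b, the paralog with a closely similar sequence, was at 0.10, -0.06 and -0.17 in sham and -0.11, 0.31 and -0.24 in ICH, a difference of 0.03 ± 0.18. A second Abcb1b probe had all ICH values above sham, with a difference of 0.26 ± 0.17 and an adjusted p = 0.475. Cross-hybridisation between the 2 genes was not tested.

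Among the carriers, Slc2a1 encodes GLUT1, which brings glucose into the brain. It stood at 2.48, 2.46 and 2.46 in sham and at 2.58, 2.58 and 2.16 in ICH. ICH 1 and ICH 2 were above all sham values and ICH 3 was below them. The difference was -0.02 ± 0.16 (log2, SE, 95% interval -0.41 to 0.37), and leaving out ICH 3 gave 0.12.

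Mfsd2a transports lysophosphatidylcholine lipids and is known to keep vesicle traffic in these cells low. It was at 0.21, 0.21 and 0.28 in sham and at 0.97, -0.14 and 0.15 in ICH. ICH 1 was above and the other two below all sham values. The difference was 0.09 ± 0.29 (log2, SE, 95% interval -0.62 to 0.80), and without ICH 1 it was -0.23.

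Slco1a4 encodes an organic anion carrier, Oatp1a4. It was at 0.88, 0.61 and 0.58 in sham and at -0.37, 0.68 and 0.14 in ICH. ICH 1 and ICH 3 were below every sham value and ICH 2 was within their range. The difference was -0.54 ± 0.28 (log2, SE, 95% interval -1.23 to 0.14), with an adjusted p = 0.402. Without ICH 1 it was -0.28.

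**Figure D2:**
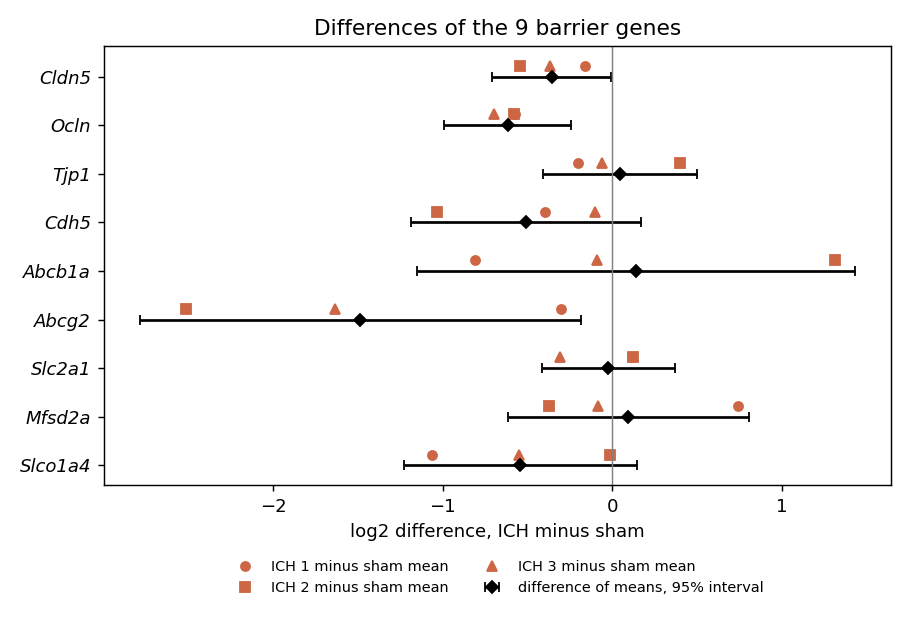
Difference of the ICH mean from the sham mean in log2 units for each barrier gene, with its 95% interval and the single ICH arrays as points, relative to the sham mean. The intervals of Ocln, Cldn5 and Abcg2 end below 0, at -0.24, -0.01 and -0.18, and the other 6 intervals include 0.

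Of the 9 members, 6 were lower and 3 higher in the ICH mean, and 55.5% of all rows were lower. Those with an unadjusted p under 0.05 were 3 of 9, all of them lower, against 14.7% of all rows in either direction, 8.99% that were lower and 5.75% that were higher. Groups did not overlap for the same 3 members, all lower, against 27.6% of all rows in either direction, 17.3% with all ICH values below and 10.3% with all above. The median difference of the members was -0.36, and that of all rows was -0.05. On each array, the median of the members relative to the sham mean was 0.16, -0.08 and -0.01 in sham and -0.31, -0.37 and -0.31 in ICH. That median fell on a different gene on each ICH array, Abcg2 on ICH 1, Mfsd2a on ICH 2 and Slc2a1 on ICH 3. Single members ran from -2.51 (Abcg2) to 1.31 (Abcb1a), both on ICH 2.

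The ICH arrays differed from each other in which members were low. ICH 2 was the array farthest from the sham mean for 5 members (Cldn5, Tjp1, Cdh5, Abcb1a and Abcg2), ICH 1 for 2 (Mfsd2a and Slco1a4) and ICH 3 for 2 (Ocln and Slc2a1). ICH 1 had 7 members below every sham value and 2 above, ICH 2 had 5 below and 3 above, and ICH 3 had 6 below and 0 above. Of all rows, 37.3%, 47.9% and 38.2% lay below every sham value on ICH 1, 2 and 3, and 36.1%, 34.6% and 27.2% lay above. The SD was larger in ICH than in sham for 8 of 9 members, as it was for 80.1% of all rows, with medians over the members of 0.14 in sham and 0.48 in ICH. All 3 sham arrays and ICH 1 lay in row 1 of the slide, and ICH 2 and ICH 3 in row 2. Within row 1, ICH 1 stood against the sham mean at -0.16 for Cldn5, -0.57 for Ocln, -0.20 for Tjp1, -0.40 for Cdh5, -0.81 for Abcb1a, -0.31 for Abcg2, 0.12 for Slc2a1, 0.74 for Mfsd2a and -1.07 for Slco1a4. The part of the row in these differences was not tested.

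Likeness between patterns was taken as the root mean square difference over the 6 arrays, after each gene was set to its sham mean. Genes with small changes come out close by this measure even where their directions differ. Tjp1 and Slc2a1, for example, stood at -0.20 and 0.12 on ICH 1. Among the members, Tjp1 and Slc2a1 were closest (0.203), then Cldn5 and Ocln (0.242) and Cldn5 and Cdh5 (0.282), and the 2 efflux pumps were farthest apart (1.70). Among 12954 other genes, the nearest to Cldn5 was Apoc2, an apolipoprotein (0.040), and the nearest to Ocln was Hey2, a Notch target (0.099). The nearest to Abcg2 was Paep (0.241, where the median over all genes was 1.22). The nearest to the others were Maoa for Tjp1 (0.030), Tas2r124 for Cdh5 (0.051), Cpox for Abcb1a (0.146), Naaa for Slc2a1 (0.031), Fbxo32 for Mfsd2a (0.080) and Rps14 for Slco1a4 (0.092).

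The other genes of the barrier were taken from lists by role, and 0 genes of any of them passed the adjusted threshold. Beside the counts that follow, 8.99% of all rows were lower and 5.75% higher at an unadjusted p under 0.05. All ICH values lay below sham for 17.3% of all rows and above for 10.3%. Of 19 measured junction partners, 9 were lower and 10 higher, with a median difference of 0.05, and 1 was lower and 1 higher at an unadjusted p under 0.05. Pard3, a polarity protein, differed by -0.39 ± 0.22 and Cdh2, neural cadherin, by 0.11 ± 0.18. Of 23 other barrier transporters, 14 were lower and 9 higher (median -0.25, with 4 lower and 1 higher at an unadjusted p under 0.05). All ICH values lay below sham for 8 of them and above for 2. With a gene's probes averaged, the median of the transporters was -0.07, where that of all rows was -0.04. Slc6a8, the creatine carrier, differed by -0.43 ± 0.18 with all ICH values below sham, and Slc3a2, a subunit of amino acid carriers, by 0.22 ± 0.15. Of 13 genes of caveolae and vesicle transport, 6 were lower and 7 higher (median 0.03, with 3 lower and 0 higher at an unadjusted p under 0.05). Cltc, clathrin heavy chain, differed by -0.48 ± 0.38 and Dnm2, a dynamin that cuts vesicles from the membrane, by -0.33 ± 0.23. Of 18 genes of the Wnt signalling that maintains the barrier, 11 were lower and 7 higher (median -0.16, with 1 lower and 2 higher at an unadjusted p under 0.05). Ndp, the ligand norrin, differed by -0.42 ± 0.13 (adjusted p = 0.299) with all ICH values below sham, and its co-receptor Lrp5 by -0.04 ± 0.16.

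**Figure D3:**
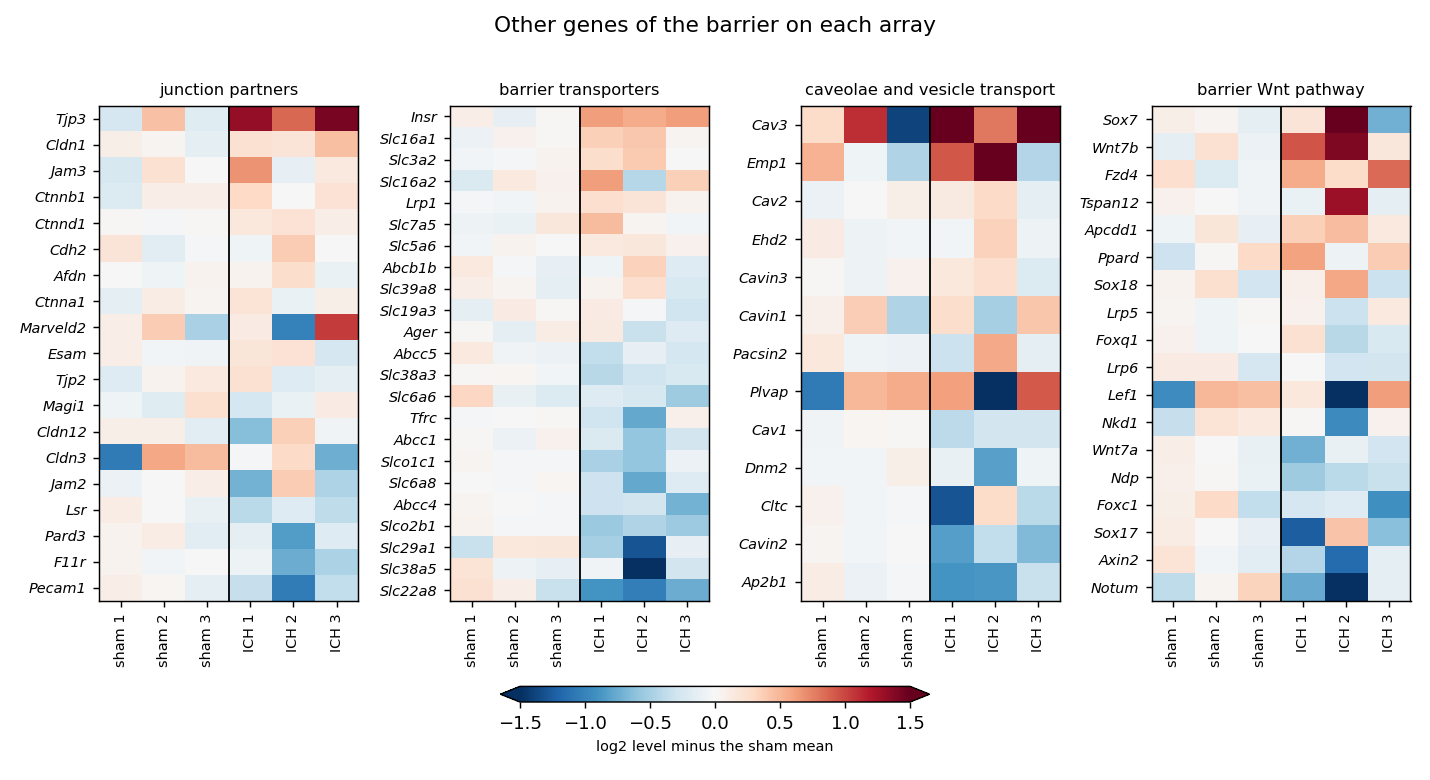
Levels of the measured genes of 4 barrier lists on each array, in log2 units relative to the sham mean, with blue for lower and red for higher and the scale ending at 1.5 either way. Rows are genes sorted by their difference within each list, and the vertical line parts the 3 sham from the 3 ICH arrays; of the 23 transporters, 14 were lower in the ICH mean.

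In the main fit, the lists of endothelial, mural and endfoot genes had median differences below 0, like the members. The part of these cells in the members' values was not tested. Of 24 endothelial genes, 19 were measured, all 19 of them well above background on all 6 arrays, while Cd34 was above it on 1 array and Vwf, Robo4, Egfl7 and Ptprb were not matched to a probe. Of the 19, 11 were lower and 8 higher (median -0.32). At an unadjusted p under 0.05, 6 were lower and 1 higher, against 8.99% and 5.75% of all rows. The summed linear level of the 19, in units of the 75th percentile of each array, was 16.6 to 17.8 in sham and 13.6 to 15.6 in ICH. In such a sum over a list the brightest probes weigh most. The same sum over all rows was also lower in ICH, at 25770 to 26654 in sham and 23375 to 24567 in ICH. Itm2a, a membrane protein of these vessels, differed by -0.71 ± 0.20 (adjusted p = 0.299) with all ICH values below sham, and S1pr1, a sphingosine phosphate receptor, by -0.43 ± 0.36. Set against the median of the endothelial list on each array, the groups of Cldn5 overlapped (sham 0.02, -0.06 and 0.04, ICH 0.03, -0.47 and -0.06). Set the same way, all ICH values of Ocln lay below sham (sham 0.20, -0.26 and 0.06, ICH -0.38, -0.50 and -0.40). For Abcg2 they did too, though ICH 1 was close to the lowest sham value (sham 0.17, -0.10 and -0.07, ICH -0.11, -2.43 and -1.33). The groups of Ocln and Abcg2 were already apart before this step. Those of Tjp1, Cdh5, Abcb1a, Slc2a1, Mfsd2a and Slco1a4 overlapped before it and after it. The share of all rows whose groups do not overlap on this scale was not computed.

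Mural cells wrap the vessels and astrocyte endfeet cover them. Of 14 mural genes, 10 were lower and 4 higher (median -0.24). At an unadjusted p under 0.05, 2 were lower and 1 higher, against 8.99% and 5.75% of all rows. The summed level of the mural genes was 17.0 to 20.4 in sham and 14.4 to 16.5 in ICH. Tagln, a smooth muscle actin-binding protein, differed by -0.34 ± 0.17 and Vtn, vitronectin, by -0.40 ± 0.17, both with all ICH values below sham. Of 10 endfoot genes, 8 were lower and 2 higher (median -0.34), 2 lower at an unadjusted p under 0.05. With a gene's probes averaged, their median was -0.24. The summed level of the endfoot genes was 29.0 to 31.2 in sham and 22.7 to 24.95 in ICH. For both lists, as for the endothelial one, the sums did not overlap between groups, and neither did those over all rows. Aqp4, the water channel of endfeet, differed by -0.46 ± 0.13 (adjusted p = 0.299), and Agrn, agrin of the basal lamina, by -0.59 ± 0.19, both with all ICH values below sham. The basal lamina list, with 9 of 15 genes measured, had a median of -0.02, with Lamb2 at 0.01 ± 0.17 and Col4a1 at -0.02 ± 0.16.

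Genes of blood cells were mostly higher in the ICH mean, and those of choroid plexus and meninges differed from each other. Beside the counts that follow, 8.99% of all rows were lower and 5.75% higher at an unadjusted p under 0.05. Of 8 red cell genes, 5 were higher and 3 lower (median 0.76, 3 higher at an unadjusted p under 0.05), and the summed level was 5.6 to 10.8 in sham and 10.4 to 14.4 in ICH, with sham 1 the highest of the sham arrays. The beta globin Hbb-b1 differed by 1.25 ± 0.36 with all ICH values above sham, and Hbb by 0.64 ± 0.31. Of 13 leukocyte genes, 10 were higher and 3 lower (median 0.74, 1 lower at an unadjusted p under 0.05), and the array medians were -0.67, 0.23 and 0.38 in sham and 0.52, 1.49 and -0.61 in ICH, with ICH 2 the highest. Lyz2 differed by -0.45 ± 0.15 and Ptprc by 0.32 ± 0.59. Choroid plexus genes, with 12 measured, varied within both groups (array medians -1.02 to 1.14 in sham and -0.39 to 1.73 in ICH), with Ttr at 0.15 ± 0.47 and Otx2 at -0.60 ± 0.94. Of 11 genes of meninges and fibroblasts, 10 were lower (median -0.32, 4 lower at an unadjusted p under 0.05), with Col1a2 at -0.63 ± 0.15 and Ptgds at -0.24 ± 0.13, both with all ICH values below sham. Against its sham mean, Abcg2 stood at -0.31, -2.51 and -1.64 on ICH 1, 2 and 3, where the leukocyte medians were 0.52, 1.49 and -0.61. Abcg2 was thus lowest on ICH 2, where leukocyte genes were highest. It was also low on ICH 3, where they were lowest of the ICH arrays. The part of blood cells, choroid plexus and meninges in the members' values was not tested.

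**Figure D4:**
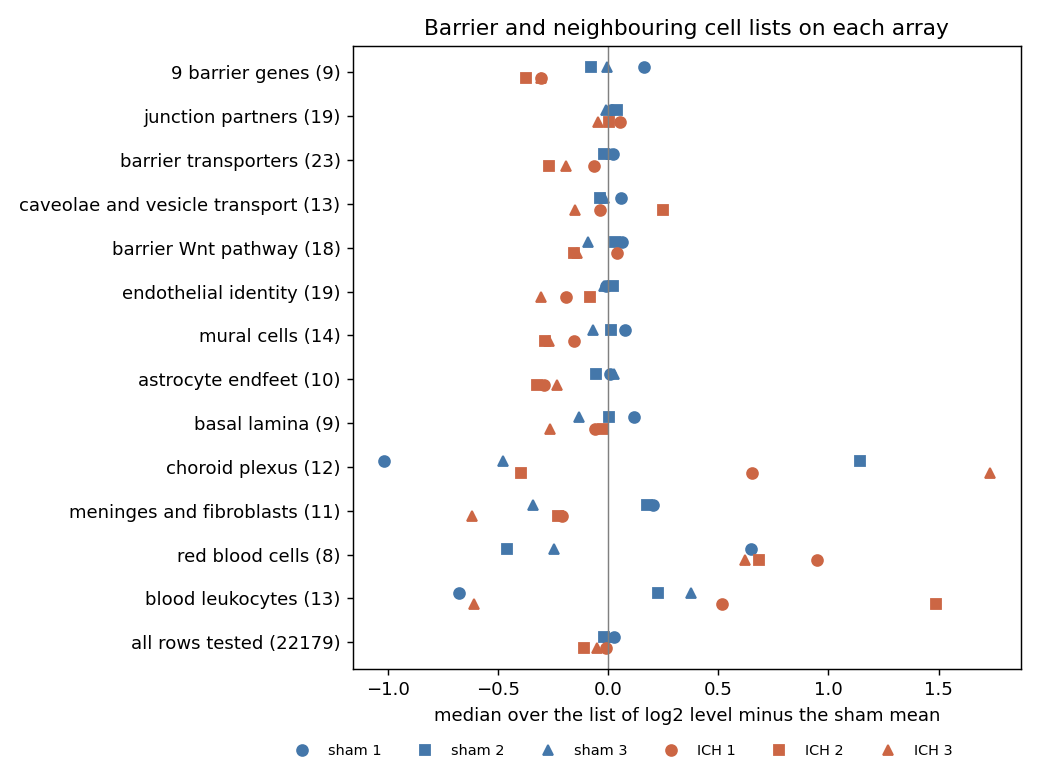
Median over each list of the log2 level relative to each gene's sham mean, with 1 point per array and the number of genes measured in brackets. Sham is blue and ICH red, and the symbol gives the replicate number. The median of the 9 barrier genes lies between -0.37 and -0.31 on the ICH arrays, and single genes lie far to either side of it.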

How the data were processed

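TRIzol was used to prepare total RNA, which was amplified and labelled with Cy3, per the labels' protocols. The deposited intensity values are background-subtracted and not normalized between arrays, per the file headers, which name Feature Extraction 11.5.1.1. The submitters' processing notes name version 10.7. The authors' flags, with the value 0 or 1, give for each spot whether it stood well above background, was saturated or lacked uniformity, per the file headers. The deposited table holds log2 values. From the values, each is the log2 intensity averaged over the spots of a probe, minus the 75th percentile over the probe means of the array, within 0.001 for 98.6% to 99.3% of probes and for all 9 members. Here the log2 intensity was centred on the same percentile, which was computed with control and non-uniform spots included. Those spots were left out of the probe values that were tested. Probes were kept if at least 0.5 of their spots were well above background on 3 or more arrays, and the brightest probe stood for a symbol. Names came from RefSeq transcripts (assembly GRCr8, names only), with 18355 probes of 30367 matched to 1 symbol and 12012 to none. 

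The ICH and sham groups were compared with limma 3.58.1 under R 4.3.3, by lmFit and eBayes without covariates. The total of 6.13 degrees of freedom per row includes those that eBayes borrows across all rows. P-values were adjusted by Benjamini-Hochberg across the 22179 rows. The fit was tested on simulated data. Tables and figures were made with Python 3.11.15, numpy 2.4.6, pandas 2.3.3 and matplotlib 3.10.9. All arrays share 1 slide and 1 scan, so neither can be a block.

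The members and lists were chosen with earlier results of these data known. Named were all members with every probe, Abcb1b, the 2 brightest measured genes of each list, as 0 were called, and the gene most like each member. Some lists share a gene. Alternatives were normexp (offset 50, on median spot signals), quantile normalization, centring on the median, on 7 spike-in probes or on the 75th percentile over spots (the last added after seeing the data), the deposited values, other filters, keeping marked spots, averaging a gene's probes, trend and robust variance, array weights, a block for the replicate number or for the row of the slide, and leaving out each array.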

Additional observations from a re-analysis of the deposited data

How the results depend on the processing

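The differences of Ocln, Cdh5, Abcg2 and Slco1a4 stayed below 0 under all 20 alternatives, though not every alternative could move them. Other filters, keeping marked spots, averaging a gene's probes, and trend and robust variance left these differences unchanged. The deposited values, on the same scale, gave nearly the same ones. The ranges were -0.73 to -0.21 for Ocln, -0.71 to -0.11 for Cdh5, -2.08 to -0.31 for Abcg2 and -1.07 to -0.14 for Slco1a4. Under any of the alternatives, 0 of the 9 members passed the adjusted threshold. The size of some differences depended on the scaling of the arrays. With quantile normalization, Cldn5 was at -0.17 ± 0.16 (log2, SE) and Ocln at -0.67 ± 0.15. With arrays centred on spike-in probes, Ocln was at -0.21 ± 0.27 and Abcg2 at -1.08 ± 0.40. The median of the members was then 0.05, against -0.36 in the main fit. Cldn5 turned to 0.047 when arrays were centred on spike-in probes, which moved the median of all rows from -0.05 to 0.35 and made 3791 of 3999 rows at an unadjusted p under 0.05 higher in ICH, against 1276 of 3269 otherwise, and 839 of 3113 with arrays centred on their median. Slc2a1 turned to 0.38 with spike-in centring, 0.18 with quantile normalization and 0.12 when blocked by slide row, which compares ICH 1 alone with sham. Tjp1 turned to -0.018 with median centring, -0.055 with array weights and -0.20 with the slide row, and Abcb1a to -0.25 with array weights and -0.81 with the slide row. Leaving out each array in turn gave -0.13 to 0.17 for Tjp1, -0.45 to 0.61 for Abcb1a, -0.095 to 0.12 for Slc2a1 and -0.23 to 0.33 for Mfsd2a. The cause of these changes was not tested. Genes called numbered 3 with normexp, 3 with spike-in centring, 4 with the filter on all 6 arrays, 4 with trend and robust variance and 3 with array weights, and 0 to 33 when an array was left out (33 without ICH 3, 8 without ICH 2). Of 260 list medians recomputed, 39 moved by more than their spread. For astrocyte endfeet it was 9 of 20, for junction partners 8 of 20 and for barrier transporters 6 of 20. With spike-in centring, the medians of barrier transporters, endothelial, mural and endfoot genes lay above 0, at 0.15, 0.09, 0.17 and 0.06. That of all rows was then 0.35. The endfoot median was -0.20 with quantile normalization, against -0.34 in the main fit.

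Samples with the same replicate number did not visibly deviate together (correlations -0.19, -0.01 and 0.07, against -0.13 to 0.17 for different numbers). With 3 arrays per group, this check is too weak to exclude a pairing. With the replicate number as a block, 0 genes were called, and 2417 had an unadjusted p under 0.05. With 3 arrays per group, the 95% intervals of 6 of the 9 members include 0.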

Other observations

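Some genes of the lists had differences with small unadjusted p that the rule for naming did not choose, and these were picked after their values were seen. Tjp3, a ZO family scaffold, was higher in ICH by 1.202 ± 0.25 (log2, SE, limma adjusted p = 0.291) and Insr, the insulin receptor, by 0.61 ± 0.13 (adjusted p = 0.284), with all 3 ICH values above sham for both. Slc22a8, an organic anion carrier, differed by -0.89 ± 0.19 (adjusted p = 0.297) and Slco2b1, an anion carrier of the same family as Slco1a4, by -0.52 ± 0.12 (adjusted p = 0.299), with all 3 ICH values below sham. Of the endothelial genes, Kdr differed by -0.61 ± 0.22, Tek by -0.45 ± 0.12 and Pecam1 by -0.59 ± 0.22, also with all ICH values below sham. Others of that list went the other way, and 8 of its 19 genes were higher in the ICH mean. Ramp2, a receptor partner protein, was higher by 0.40 ± 0.16 with all ICH values above sham, and the groups overlapped for Eng (0.27 ± 0.22) and Flt1 (0.03 ± 0.12). Notch3, a receptor of mural cells, was higher by 0.71 ± 0.15 (adjusted p = 0.291), while Acta2, smooth muscle actin, differed by -0.77 ± 0.24. Beside these, 14.7% of all rows had an unadjusted p under 0.05.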
